A study of Mus musculus with 15 samples.

Results

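Integrins are the adhesion receptors with which leukocytes hold on to vessel walls and epithelium and with which tissue cells hold on to their matrix. The integrin genes described here were a list of 10, and their probes were all those that the platform annotation assigned to these symbols. The annotation gave 16 probes to 8 of the 10 genes, out of 25697 probes and 16593 named genes in the whole series. Itgal and Itga8 had no probe under their symbols in that annotation and were not analysed here. Of the 16 probes, 11 probes of 6 genes (Itgax, Itgb2, Itgb7, Itgae, Itgb1 and Itgb6) were detected on at least 3 arrays and were tested.

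Whole-lung RNA from 15 male C57BL/6 mice aged 22 weeks was measured on Illumina beadchips, 1 array per mouse. There were 4 wild types and 3 homozygous mutants without challenge, and 4 wild types and 4 homozygous mutants after challenge with OVA (ovalbumin, a common allergen in mouse models of airway allergy). Ifit2, induced by interferon, is the gene in the study's title, and both Ifit2 probes were detected on all 4 arrays of each wild-type group and on 0 arrays of either mutant group. The labels used here do not describe the allele, the sensitization or the time between challenge and sampling.

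Each integrin is a pair of an alpha and a beta subunit. Beta 2 (Itgb2) pairs with alpha L (Itgal), alpha M (Itgam) and alpha X (Itgax) on leukocytes and carries them across the vessel wall. Beta 7 (Itgb7) pairs with alpha 4 (Itga4) for homing to mucosa and with alpha E (Itgae) for lodging at epithelium, where E-cadherin is its ligand, whereas beta 1 (Itgb1) pairs with many alpha subunits, alpha 8 (Itga8) among them, and binds matrix in most cells. Beta 6 (Itgb6), a subunit of epithelial cells, pairs with alpha v and activates latent TGF-beta.

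Several arrays stood apart. Challenged arrays had a lower mean raw signal than unchallenged arrays, 445 ± 60.9 (SD, n = 8) against 615 ± 55.6 (SD, n = 7; two-sided exact permutation test, p = 0.000466), with p = 0.0857 within wild types and p = 0.0286 within mutants by the same exact test. The alveolar epithelium markers, which check the tissue label, had a mean log2 intensity between 12.1 and 13.0 on every array. Exocrine pancreas markers reached 10.8 to 14.5 on 4 challenged arrays (replicates 1 and 2 of both genotypes), between 6.03 and 6.45 on the other challenged arrays and at most 5.50 on unchallenged arrays. Of 4 thymus markers on the array only 1 was tested, and Rag2 and Ptcra were detected on no array. That 1 marker reached 10.65 on challenged mutant 1 and at most 6.49 elsewhere. Challenged mutant 4 had the lowest mean raw signal, 319.9.

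OVA challenge was accompanied by higher Itgax, Itgb2 and Itgb7 in both genotypes, by higher Itgae on 1 probe in wild types, and by lower Itgb1 on 1 probe in wild types. Itgb6 passed no test. In wild types 4 of the 11 integrin probes were higher and 1 was lower after challenge at an adjusted p under 0.05, against 22.5% of all 14396 probes tested (1411 higher and 1829 lower). Mutants had 3 integrin probes higher and 0 lower, against 30.5% of all probes (1944 higher and 2448 lower). The called probes belonged to 5 of the 6 genes in wild types and to 3 of 6 in mutants. Challenged and unchallenged arrays did not overlap on 6 of the 11 probes in wild types, against 28.8% of all probes, and on 4 in mutants, against 38.1%. The share in mutants thus lay near the background on both counts. The median log2 difference over the 11 probes was 0.31 in wild types and -0.19 in mutants, beside -0.01 and -0.02 over all probes. Under median scaling in place of quantile normalization the median of all probes moved to -0.31 and -0.54, and the calls split into 558 higher and 4600 lower in wild types and 540 higher and 7391 lower in mutants. Without the 4 arrays of high pancreas level, 3 integrin probes passed in wild types and 6 in mutants (2444 and 5603 of all probes). Without challenged mutants 1 and 4 the counts were 5 and 2 (4447 and 3125 of all probes). With mean raw signal as a covariate only 1 integrin probe passed in wild types and 0 passed in mutants (at that setting 964 and 190 of all probes passed). Mean raw signal itself differed with challenge, so wherever this covariate is used, challenge and array brightness cannot be told apart. In whole lung, more cells of a type and more RNA per cell cannot be told apart.

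**Figure D1:**
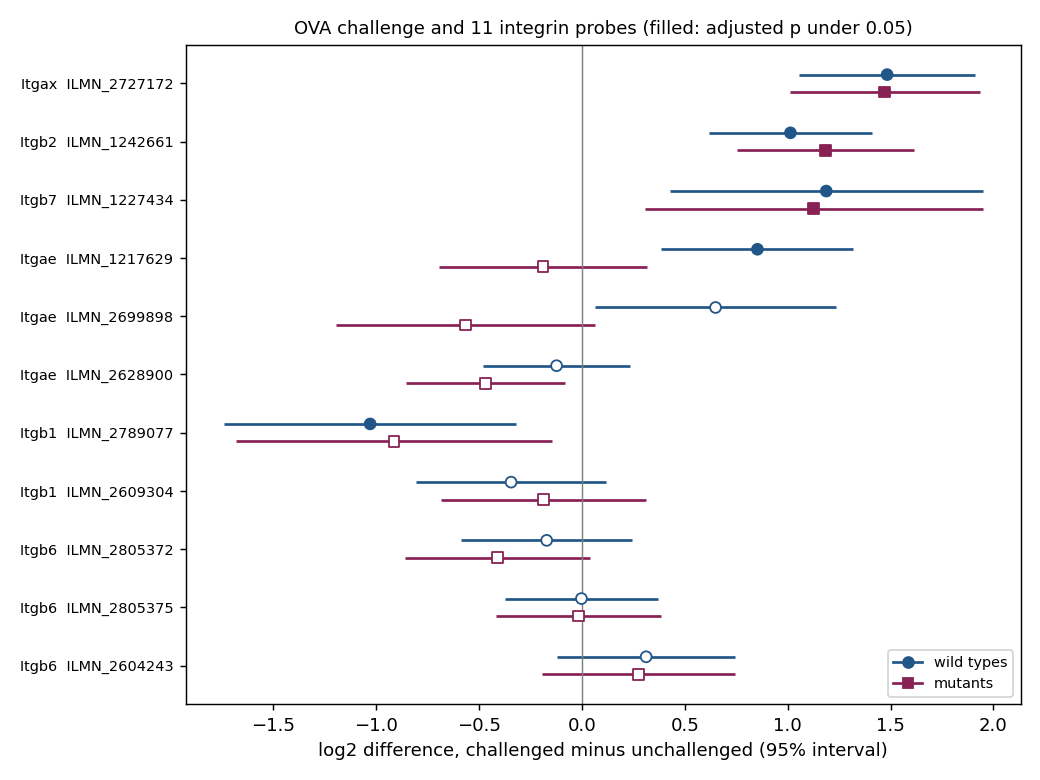
Log2 difference in intensity, challenged minus unchallenged (horizontal axis), for the 11 integrin probes tested, with 95% intervals; circles are wild types (4 against 4 mice), squares are mutants (4 against 3), and filled symbols passed an adjusted p under 0.05. Itgax, Itgb2 and Itgb7 lie to the right of 0 in both genotypes, the brighter Itgae probes lie to the right in wild types and to the left in mutants, and the 3 Itgb6 probes lie near 0.

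Itgax encodes alpha X (CD11c), the subunit by which dendritic cells and alveolar macrophages of the mouse are recognised. Its probe ILMN_2727172 had log2 intensities of 6.12, 6.34, 5.78 and 6.36 in unchallenged wild types, 6.77, 5.76 and 6.74 in unchallenged mutants, 7.71, 7.46, 7.78 and 7.58 in challenged wild types, and 7.87, 7.82, 7.85 and 8.03 in challenged mutants. In these normalized values every challenged array lay above every unchallenged array, and unchallenged mutant 2 was the lowest of all. In raw signal challenged mutant 4, the array of lowest mean raw signal, was at 246.6. That lay below unchallenged mutants 1 (265.3) and 3 (261.9). Itgax was 2.80-fold higher with challenge in wild types (log2 difference 1.48 ± 0.20 SE, adjusted p = 0.000330) and 2.77-fold in mutants (1.47 ± 0.22 SE, adjusted p = 0.000438). The difference between the genotypes' responses was -0.01 on the log2 scale, with a 95% interval from -0.64 to 0.62 (adjusted p = 1.00). Itgax passed under all 30 alternatives in wild types and under 29 of 30 in mutants, the exception being mean raw signal as a covariate (adjusted p = 0.139).

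Itgb2 encodes beta 2 (CD18), the partner without which Itgax, Itgam and Itgal do not reach the cell surface. Probe ILMN_1242661 read 6.68, 6.17, 6.22 and 6.64 on the log2 scale in unchallenged wild types, 7.14, 6.22 and 6.75 in unchallenged mutants, 7.67, 7.31, 7.47 and 7.32 in challenged wild types, and 7.91, 7.79, 7.73 and 8.12 in challenged mutants. In these normalized values challenged and unchallenged arrays did not overlap for Itgb2 either, and the 4 challenged mutants lay above the 4 challenged wild types. Neither separation held in raw signal. There challenged mutant 4, the array of lowest mean raw signal, was the lowest challenged array at 252.9. Unchallenged mutants 1 (309.2) and 3 (262.3) lay above it. The share of all probes separated between the challenged genotypes was not computed. The rise was 2.02-fold in wild types (log2 difference 1.01 ± 0.19 SE, adjusted p = 0.00209) and 2.27-fold in mutants (1.18 ± 0.20 SE, adjusted p = 0.00104). With mean raw signal as a covariate both fell short of the threshold (adjusted p = 0.0886 and 0.336), and no other of 30 alternatives ended either call. Between challenged mutants and challenged wild types Itgb2 differed by 0.45 ± 0.19 (SE) on the log2 scale, with a 95% interval from 0.05 to 0.84, which did not pass adjustment (adjusted p = 0.334).

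Itgam encodes alpha M (CD11b), the subunit of monocytes, neutrophils and eosinophils. Its probe ILMN_2696017 was detected on 1 of 15 arrays, challenged wild type 2, and its log2 intensity stayed between 5.26 and 5.92, so it was not tested. Itgax and Itgb2 followed each other across the 15 arrays (Pearson r = 0.956), and within the 7 unchallenged arrays (r = 0.769) and the 8 challenged arrays (r = 0.918) taken apart. This was not particular to partners. The beta subunits Itgb2 and Itgb7 had r = 0.896, 0.895 and 0.584 over the same sets of arrays. The partners Itgb7 and Itgae had r = 0.626, 0.750 and 0.137. These arrays share the challenge difference and array brightness.

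**Figure D2:**
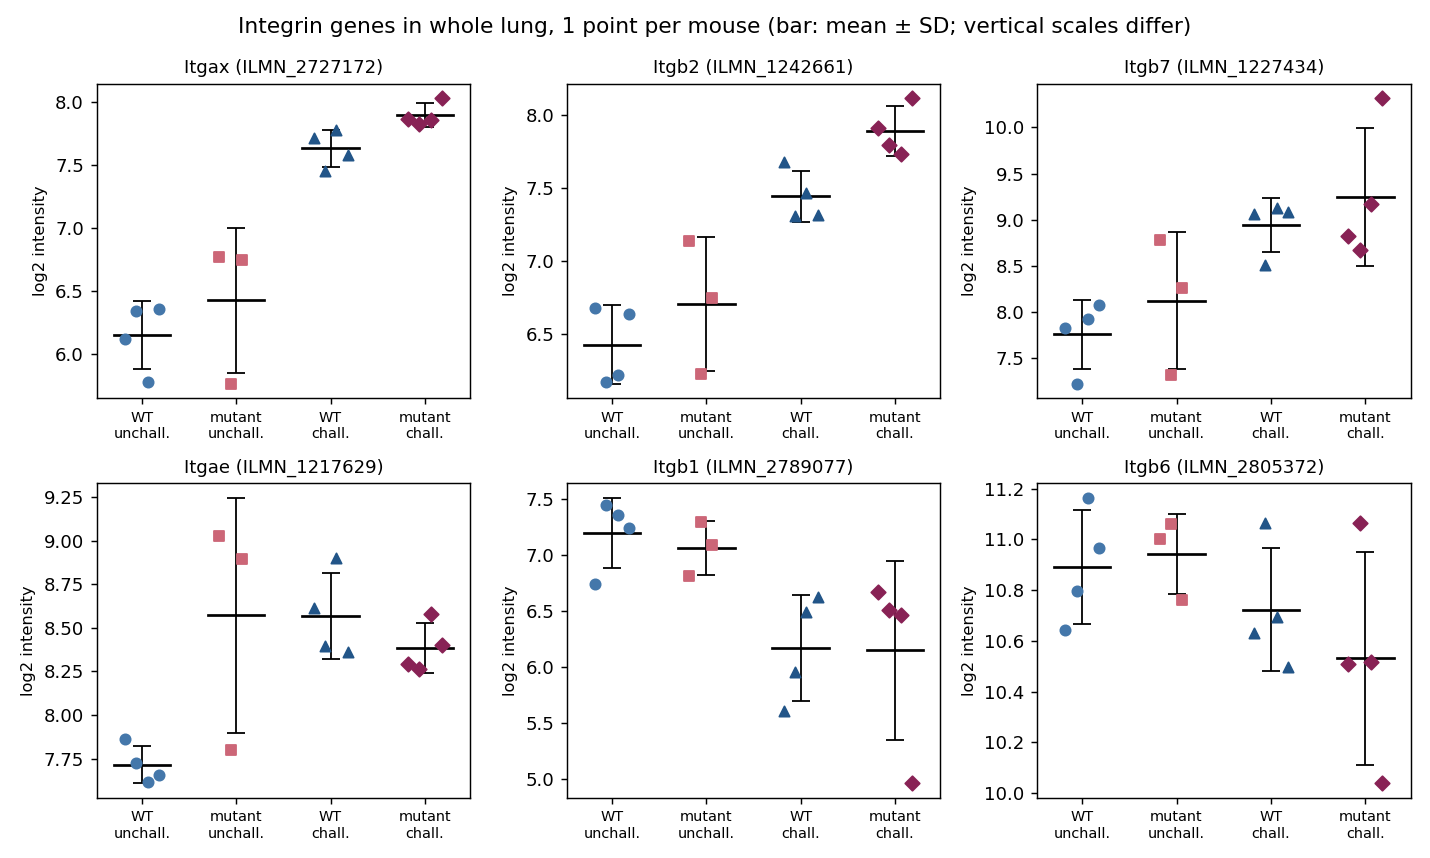
Log2 intensity (vertical axis, with its own scale in each panel) of the brightest probe of the 6 integrin genes tested, by group; each point is 1 mouse and the bars are the group mean ± SD (n = 4, 3, 4 and 4). In these normalized values all challenged arrays lie above all unchallenged arrays for Itgax and Itgb2, which was not so in raw signal. For Itgb7 unchallenged mutant 1 at 8.78 lies above challenged mutant 2 at 8.67.

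The sequences before the starts of Itgax, Itgam and Itgb7 are shown. The first and last of these genes rose in both genotypes. The second, a neighbour of Itgax in family and on chromosome 7, had 1 probe, which was detected on 1 array. For Itgam a dim probe and low RNA cannot be told apart, so it is not a contrast to the others. Each run is the 250 bases before the start in a RefSeq promoter table of build GRCm38.p6, read 5′ to 3′ along the gene's strand. Itgax lies at chr7:128129300-128129549 (+), Itgam at chr7:128062390-128062639 (+) and Itgb7 at chr15:102231936-102232185 (-). Capitals mark matches, on either strand, to GGAAGT, a core bound by factors of the ETS family, to GAGGAA, a core bound by PU.1 (an ETS factor of myeloid and B cells), and to a core of the interferon-stimulated response element, GAAA and a second GAAA with any 2 bases between them.
Itgax: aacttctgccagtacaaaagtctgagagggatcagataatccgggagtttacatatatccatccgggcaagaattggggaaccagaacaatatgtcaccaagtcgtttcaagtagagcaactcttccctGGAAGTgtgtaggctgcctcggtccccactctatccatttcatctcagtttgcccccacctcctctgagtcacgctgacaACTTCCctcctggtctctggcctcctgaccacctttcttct
Itgam: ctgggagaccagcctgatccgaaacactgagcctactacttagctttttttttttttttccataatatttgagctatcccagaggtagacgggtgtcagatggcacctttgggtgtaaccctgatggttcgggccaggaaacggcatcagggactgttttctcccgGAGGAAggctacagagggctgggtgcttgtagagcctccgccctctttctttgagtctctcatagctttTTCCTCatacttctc
Itgb7: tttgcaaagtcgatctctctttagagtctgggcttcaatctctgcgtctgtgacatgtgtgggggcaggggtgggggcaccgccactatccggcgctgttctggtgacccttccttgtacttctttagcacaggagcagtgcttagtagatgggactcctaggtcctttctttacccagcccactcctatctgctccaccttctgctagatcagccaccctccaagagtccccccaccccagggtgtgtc

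The Itgax sequence held 2 matches to GGAAGT, at 121 and 41 bases before the start, and none to the other motifs. That of Itgam held 2 matches to GAGGAA, at 84 and 15 bases before the start, and Itgb7 held no match to any of the 3. Over windows of the same length before 32851 starts in that table, GGAAGT occurred in 19.7%, GAGGAA in 23.3% and the interferon-stimulated core in 2.98%. A match describes the letters and is not a binding site. The table matched 7 of the 10 integrin genes. Among those not shown, Itgb1 held 1 match to GAGGAA, at 9 bases before the start. For Itgb6, 1 start held 2 matches to GGAAGT (54 and 33 bases before it) and 1 to GAGGAA (35 bases), and another held none. Itga4 and Itga8 held no match.

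Itgb7 encodes beta 7, the subunit shared by the mucosal homing receptor alpha 4 beta 7 and by alpha E beta 7 (CD103). Probe ILMN_1227434 had log2 intensities of 7.82, 7.22, 7.92 and 8.07 in unchallenged wild types, 8.78, 7.31 and 8.26 in unchallenged mutants, 9.06, 8.51, 9.12 and 9.09 in challenged wild types, and 8.82, 8.67, 9.17 and 10.32 in challenged mutants. The wild-type groups did not overlap, but unchallenged mutant 1 lay above challenged mutant 2. Itgb7 rose 2.28-fold in wild types (log2 difference 1.19 ± 0.35 SE, adjusted p = 0.0275) and 2.18-fold in mutants (1.13 ± 0.38 SE, adjusted p = 0.0387). Each of these calls was lost when any of several single arrays was left out. In wild types the call was lost without unchallenged wild types 2 (adjusted p = 0.0882) or 3 (0.0513), without challenged wild types 1 (0.0555), 3 (0.0660) or 4 (0.0555), and with mean raw signal as a covariate (log2 difference 0.40, adjusted p = 0.580).

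In mutants the Itgb7 call was lost without unchallenged mutants 2 (log2 difference 0.72, adjusted p = 0.207) or 3 (adjusted p = 0.0693) and without challenged mutants 3 (0.0597) or 4 (log2 difference 0.77, adjusted p = 0.0910). It was also lost with median scaling (log2 difference 0.41, adjusted p = 0.274), and the covariate turned its sign (-0.24, adjusted p = 0.852). In all it held under 19 of 30 alternatives. Challenged mutant 4, the highest in Itgb7 at 10.32, also had the highest mean level of the 4 B cell markers, 9.18, against 7.34 to 8.22 in challenged wild types. It had the highest level of the 4 pan-leukocyte markers too, 11.58, and of the NK cell (12.03) and mast cell (7.00) markers. It was not the highest in macrophage (7.84), neutrophil (8.49), eosinophil (10.09), T cell (8.99) or dendritic cell (7.82) levels. This array had the lowest mean raw signal. Its raw Itgb7 signal, 665.8, lay below that of unchallenged mutant 1, 700.2. The part of these markers and of array brightness in the Itgb7 value was not tested. Itga4, the other alpha partner of beta 7, had a probe (ILMN_2635342) that was detected on no array, with log2 intensities from 4.92 to 5.41.

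Itgae encodes alpha E, which with beta 7 forms CD103, carried by tissue-resident T cells and by a subset of lung dendritic cells. Of its 6 probes, 3 were annotated to each of 2 transcripts. ILMN_1217629 and ILMN_2699898, on the first transcript, were detected on all 15 arrays, ILMN_2628900 on the second transcript on 8, ILMN_1249573 on 1 (unchallenged mutant 1), and ILMN_2628899 and ILMN_2656090 on none. The probes therefore differ in what they can show, and the results below rest on the first pair.

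Log2 intensity of ILMN_1217629 was 7.86, 7.72, 7.62 and 7.66 in unchallenged wild types, 9.03, 7.80 and 8.89 in unchallenged mutants, 8.61, 8.40, 8.90 and 8.36 in challenged wild types, and 8.29, 8.26, 8.58 and 8.40 in challenged mutants. For ILMN_2699898 the values were 7.58, 7.57, 7.61 and 7.53, then 9.12, 7.36 and 8.73, then 8.06, 8.11, 8.57 and 8.14, then 7.88, 7.79, 8.03 and 7.64 in the same order of groups. On both probes unchallenged mutants 1 and 3 lay above every wild type without challenge, unchallenged mutant 2 lay within that wild-type range on the first probe and below it on the second, and the 4 challenged wild types lay above the 4 unchallenged wild types.

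In wild types ILMN_1217629 rose 1.81-fold with challenge (log2 difference 0.85 ± 0.22 SE, adjusted p = 0.0129), while ILMN_2699898 differed by 0.65 ± 0.27 (SE) without passing (adjusted p = 0.100). The call of ILMN_1217629 was lost with median scaling (log2 difference 0.44, adjusted p = 0.138), with the mean-signal covariate (0.54, adjusted p = 0.267) and without the 4 arrays of high pancreas level (0.92, adjusted p = 0.0570). In mutants the differences were -0.19 ± 0.24 (SE; adjusted p = 0.556) and -0.57 ± 0.29 (SE; adjusted p = 0.155). Under median scaling, where the median of all probes was -0.54 in mutants, both passed as lower, at -0.91 (adjusted p = 0.00634) and -1.26 (adjusted p = 0.00522). On ILMN_2628900 the log2 differences were -0.12 (adjusted p = 0.627) in wild types and -0.47 (adjusted p = 0.0620) in mutants, with 1 of 4 challenged arrays detected in each genotype, so this probe and the brighter pair disagree in sign in wild types.

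Without challenge, Itgae was 0.86 ± 0.24 (SE) higher on the log2 scale in mutants than in wild types on ILMN_1217629 and 0.83 ± 0.29 (SE) higher on ILMN_2699898, with adjusted p = 1.00 on both. The challenge responses of the genotypes differed by -1.04 ± 0.32 (SE) and -1.22 ± 0.40 (SE), also with adjusted p = 1.00. These values turn on unchallenged mutant 2. Without it the difference between unchallenged genotypes was 1.25 (adjusted p = 0.00363) and 1.35 (adjusted p = 0.00259), the difference between responses was -1.43 (adjusted p = 0.0261) and -1.74 (adjusted p = 0.00699), and the challenge difference in mutants was -0.58 (adjusted p = 0.0310) and -1.09 (adjusted p = 0.00201). Leaving out this array also moved the calls over all probes. Between unchallenged genotypes 36 of all probes then passed (34 higher and 2 lower), against 2 with it. For the difference between responses 8 passed (0 higher and 8 lower), against 0 with it. For challenge in mutants 2310 passed, against 4392 with it. No array was left out for a stated fault, and without unchallenged mutant 2 only 2 unchallenged mutants stand for their group.

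The same arrays differed in leukocyte markers. The 4 pan-leukocyte markers (Ptprc, Laptm5, Coro1a and Cd53) had a mean log2 level of 10.57, 9.52 and 10.30 in unchallenged mutants 1, 2 and 3, against 9.63 to 9.94 in unchallenged wild types. For the 3 T cell markers tested of 6 on the array the levels were 8.49, 6.92 and 8.26, against 6.82 to 7.47, and Cd8a was detected on no array. The levels of the 4 macrophage markers were 8.05, 7.25 and 7.85, against 7.24 to 7.52. The levels of the eosinophil markers tested were 6.57, 5.20 and 7.41, against 5.01 to 5.50. The 1 thymus marker tested was at 6.49 in mutant 3, against at most 5.35 in unchallenged wild types. In challenged mutants the T cell level was 7.95, 8.23 and 8.99 on arrays 2, 3 and 4 and 10.53 on array 1, the array of high thymus level. Mutants 1 and 3, high in Itgae without challenge, were thus above mutant 2 in the lists of pan-leukocyte, T cell, macrophage and eosinophil markers. Mutant 2 was also lowest in B cell levels (7.45, 6.24 and 7.09 in mutants 1, 2 and 3) and dendritic cell levels (7.91, 7.40 and 7.67). Mutant 3 lay below mutant 2 in neutrophil levels (7.71, 6.88 and 6.69) and in the 1 NK cell marker tested (10.78, 10.76 and 10.72). Mast cell levels differed little (5.58, 5.55 and 5.76). The part of the markers in the Itgae values was not tested.

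**Figure D3:**
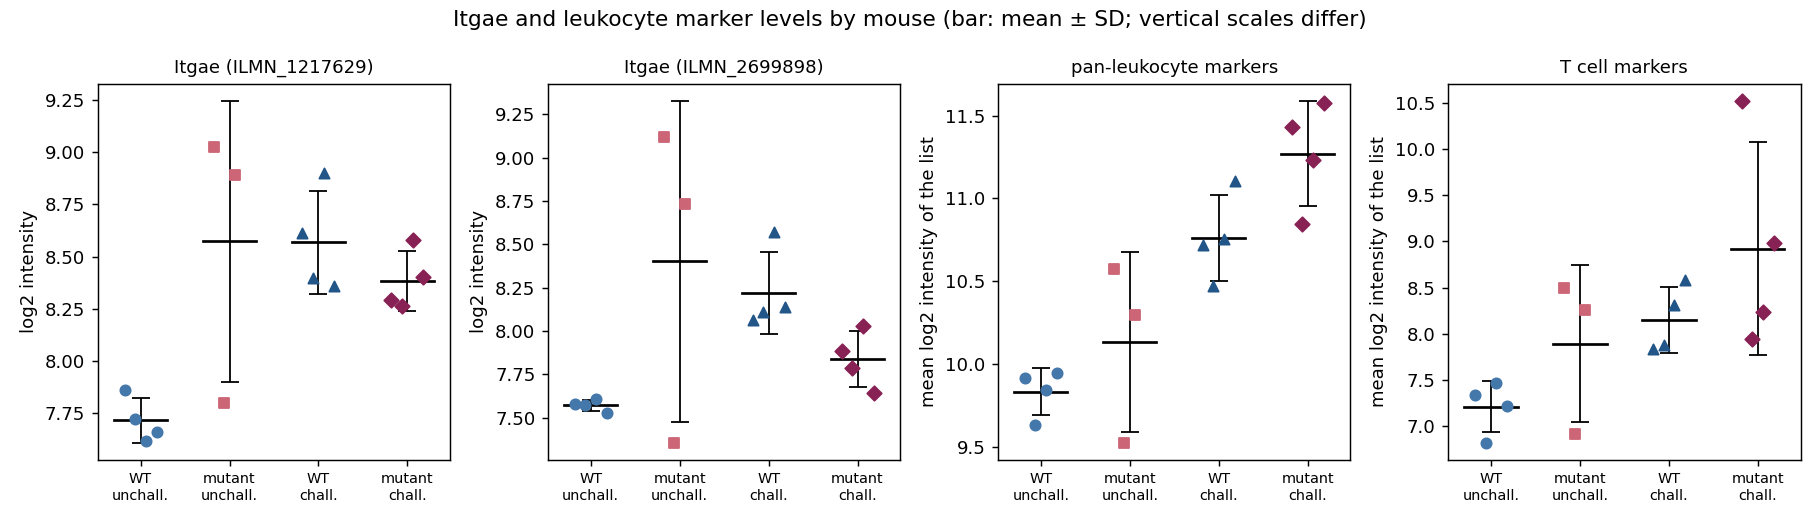
Log2 intensity of the 2 brighter Itgae probes and mean log2 intensity of the pan-leukocyte and T cell markers (vertical axes, each with its own scale) by group; each point is 1 mouse and the bars are the group mean ± SD. Unchallenged mutants 1 and 3 lie above unchallenged mutant 2 in all 4 panels, and challenged mutants lie above unchallenged wild types in Itgae on both probes.

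Itgb1 encodes beta 1, the partner of most matrix-binding alpha subunits. ILMN_2789077 had log2 intensities of 6.75, 7.45, 7.36 and 7.24 in unchallenged wild types, 6.82, 7.29 and 7.09 in unchallenged mutants, 5.61, 5.96, 6.49 and 6.63 in challenged wild types, and 6.67, 6.51, 6.47 and 4.96 in challenged mutants. Within each genotype the challenged arrays lay below the unchallenged arrays, and challenged wild type 1 and challenged mutant 4 were not detected. Itgb1 was 2.04-fold lower with challenge in wild types (log2 difference -1.03 ± 0.33 SE, adjusted p = 0.0386) and differed by -0.91 ± 0.36 (SE) in mutants without passing (adjusted p = 0.0665). ILMN_2609304, on the same transcript, gave -0.34 ± 0.22 (SE; adjusted p = 0.268) and -0.19 ± 0.23 (SE; adjusted p = 0.557), with overlapping groups, so the probes had the same sign and not the same call. Under median scaling (all-probe medians -0.31 and -0.54), ILMN_2609304 passed as lower in wild types (-0.62, adjusted p = 0.0132) and in mutants (-0.62, adjusted p = 0.0117), and ILMN_2789077 passed in mutants (-1.22, adjusted p = 0.00586).

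The Itgb1 call in wild types held under 18 of 30 alternatives. It was lost without unchallenged wild types 2 (adjusted p = 0.100), 3 (0.0930) or 4 (0.0822), without challenged wild types 1 (0.101) or 2 (0.0930), without unchallenged mutant 3 (0.0502) and without the 4 arrays of high pancreas level (log2 difference -0.64, adjusted p = 0.225). With mean raw signal as a covariate the difference was -0.12 (adjusted p = 0.841), and with the authors' series matrix values it was -1.30 (adjusted p = 0.296). Endothelial markers fell over the same groups, 3 of the 4 tested in each genotype, with mean log2 levels of 10.04 to 10.41 without challenge and 8.89 to 9.83 with it. Their part in the Itgb1 value was not tested.

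Itgb6 encodes beta 6, which is found on epithelium and joins alpha v. On ILMN_2805372, the brightest of its 3 probes, log2 intensity was 10.64, 10.80, 11.16 and 10.97 in unchallenged wild types, 11.00, 11.06 and 10.76 in unchallenged mutants, 10.63, 11.07, 10.69 and 10.50 in challenged wild types, and 10.51, 11.06, 10.52 and 10.04 in challenged mutants. The groups overlapped, and challenged mutant 4 was the lowest. The log2 difference with challenge was -0.17 ± 0.19 (SE; adjusted p = 0.555) in wild types and -0.41 ± 0.21 (SE; adjusted p = 0.148) in mutants, and the latter passed at -0.66 (adjusted p = 0.0222) without the 4 arrays of high pancreas level. ILMN_2805375 gave 0.00 (95% interval -0.37 to 0.37) and -0.02 (-0.42 to 0.38), and ILMN_2604243 gave 0.31 (adjusted p = 0.282) and 0.27 (adjusted p = 0.351). The 3 probes gave no common direction with quantile normalization, and a change of the size seen for Itgax lies outside their intervals. Under median scaling all 3 were lower in mutants, ILMN_2805372 at -1.13 (adjusted p = 0.00796), ILMN_2805375 at -0.75 (adjusted p = 0.0240) and ILMN_2604243 at -0.41 (adjusted p = 0.146), where the median of all probes was -0.54.

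Between genotypes no integrin probe passed. Without challenge 0 of 11 integrin probes passed limma's moderated test, against 0.0139% of all probes, and 2 (both of Itgae) had an unadjusted p under 0.05. With challenge 0 passed, against 0.174% of all probes, and 1 (Itgb2) had an unadjusted p under 0.05. The difference between the genotypes' responses passed for 0 integrin probes and for 0% of all probes, and 2 (both of Itgae) had an unadjusted p under 0.05. Besides the pair of Itgae probes, the log2 difference between unchallenged genotypes lay between -0.26 and 0.36, and the difference between responses between -0.34 and 0.17.

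For Itgax, Itgb2 and Itgb7 the group means rose in the same order, from unchallenged wild types through unchallenged mutants and challenged wild types to challenged mutants. For Itgax these means were 6.15 ± 0.27, 6.42 ± 0.58, 7.63 ± 0.14 and 7.89 ± 0.09 (SD, n = 4, 3, 4 and 4). Neighbours in this order that share a challenge state did not pass adjustment for any of the 3 genes. For Itgae ILMN_1217629 the order was different, with unchallenged wild types at 7.71 ± 0.11 (SD, n = 4) below challenged mutants at 8.38 ± 0.14 (SD, n = 4), challenged wild types at 8.57 ± 0.25 (SD, n = 4) and unchallenged mutants at 8.57 ± 0.67 (SD, n = 3).

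The genes whose brightest probe followed each member most closely across the 15 arrays, out of 10193, are given as a description. For Itgax they were Gpr171 (Pearson r = 0.978), Osm (0.974) and Tff1 (0.974), and for Itgb2 they were Gpr171 (0.969), Hk3 (0.968) and Pld4 (0.968). Itgb7 was followed by Hcst (0.983), Lsp1 (0.977) and Btk (0.969), the first an adaptor of lymphocyte receptors and the last a kinase of B cell signalling. Itgae was followed less closely, by Cxcl9 (0.920), Septin3 (0.900) and Clec4n (0.890). Itgb1 had Cxcl12 (0.973), Tcn2 (0.972) and Fitm2 (0.969), and Itgb6 had Niban2 (0.909), Itga3 (0.905) and Icam1 (0.897). All these points share the challenge difference.

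The lists of related genes that follow are counts over few genes, to be read against the 22.5% of all probes called in wild types and 30.5% in mutants, with medians of -0.01 and -0.02. Among 17 other integrin subunits, 16 were on the array and 12 were tested, and Itgb2l, Itgb3 and Itgb8 were detected on no array. In wild types 3 rose and 2 fell with challenge (median log2 difference -0.18), and in mutants 2 rose and 5 fell (median -0.51). Itga1, a collagen-binding partner of beta 1, fell by 1.44 ± 0.24 (SE) on the log2 scale in wild types (adjusted p = 0.00129) and by 2.01 ± 0.26 (SE) in mutants (adjusted p = 0.000213). Itga7, a laminin-binding partner of beta 1 best known from muscle, rose by 1.14 (adjusted p = 0.000521) and 0.80 (adjusted p = 0.00475), and Itga2b, the platelet subunit alpha IIb, rose by 0.94 (adjusted p = 0.0193) and 1.09 (adjusted p = 0.0101). In mutants Itga2b was detected on 3 challenged and 2 unchallenged arrays, so its size there is limited by background. Itga5, the fibronectin receptor subunit, rose by 0.42 in wild types (adjusted p = 0.0254). Itgav, the alpha partner of Itgb6, was detected on 0 challenged arrays and on 2 arrays of each unchallenged group, and its fall in mutants (adjusted p = 0.0116) is near background, so no fold is given. Skeletal muscle markers, which bear on Itga7, varied between arrays from 5.05 to 11.79 and 0 of 5 passed in either genotype, and their part was not tested.

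**Figure D4:**
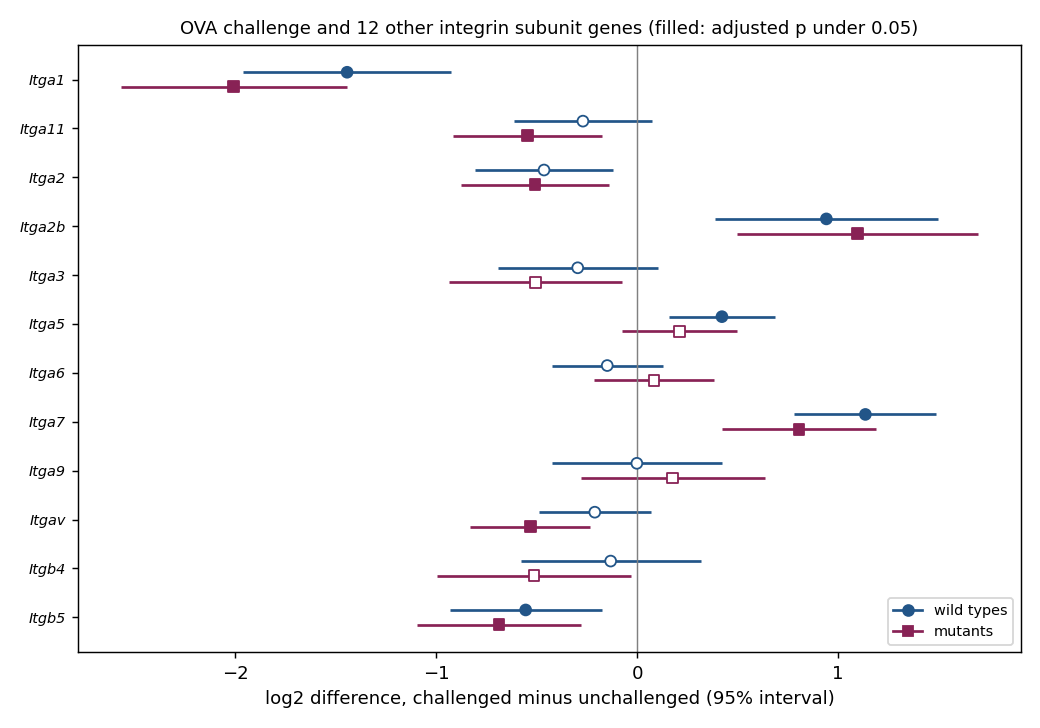
Log2 difference in intensity, challenged minus unchallenged (horizontal axis), for the 12 other integrin subunit genes tested, with 95% intervals; circles are wild types, squares are mutants, and filled symbols passed an adjusted p under 0.05. Itga1 lies far to the left in both genotypes, and Itga7 and Itga2b lie to the right in both.

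Of 26 integrin ligand genes on the array 21 were tested, and 2 rose and 6 fell in wild types (median log2 difference -0.37), while 3 rose and 7 fell in mutants (median -0.16). Lamc1, a laminin chain, fell by 0.57 and 0.79 on the log2 scale (adjusted p = 0.000973 and 0.000171), and Ccn1, a matrix protein bound by alpha v integrins, rose by 0.92 and 1.10 (adjusted p = 0.00483 and 0.00209), wild types first. Col4a1, a basement membrane collagen, fell in wild types by 0.46 (adjusted p = 0.00778), Thbs1 (thrombospondin) fell there to background (adjusted p = 0.00547), with 1 of 4 challenged arrays detected, and Tgfb3 fell in mutants by 1.26 (adjusted p = 0.00411). Npnt, the matrix ligand of alpha 8 beta 1, fell in mutants (adjusted p = 0.00558) to background, with 0 of 4 challenged arrays detected. Cdh1, the E-cadherin bound by alpha E beta 7, rose by 0.47 in wild types (adjusted p = 0.0236) and 0.46 in mutants (adjusted p = 0.0285), and Icam2, an endothelial ligand of beta 2 integrins, fell by 0.96 (adjusted p = 0.0154) and 1.08 (adjusted p = 0.00916). Cdh1 and Icam2 were chosen after their values were seen.

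Integrin activation and adaptor genes numbered 32 on the array and 29 tested, with 7 higher and 5 lower in wild types (median log2 difference 0.02) and 8 higher and 5 lower in mutants (median 0.16). Lims2 and Fermt2, adaptors of focal adhesions, fell by 1.23 and 0.78 on the log2 scale in wild types (adjusted p = 0.000349 and 0.00241) and by 1.40 and 0.93 in mutants (adjusted p = 0.000201 and 0.00105). Pxn (paxillin) fell by 1.74 in mutants (adjusted p = 0.00225). It was detected on 2 challenged and 3 unchallenged mutant arrays, so the size of its fall is limited by background. Fgr, a kinase downstream of beta 2 integrins in myeloid cells, rose by 0.97 in wild types (adjusted p = 0.00523), and Sharpin, an inhibitor of integrin activation, rose by 0.52 (adjusted p = 0.00738) in wild types and 0.77 (adjusted p = 0.000893) in mutants.

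Of 15 TGF-beta pathway genes on the array 13 were tested, and 1 rose and 5 fell in wild types (median log2 difference -0.40), while 2 rose and 8 fell in mutants (median -0.60). Mmp12, the macrophage elastase, rose 23.1-fold in wild types (adjusted p = 6.70e-05) and 9.02-fold in mutants (adjusted p = 0.00104). Tgfbr2, the type II TGF-beta receptor, fell by 0.93 and 1.08 on the log2 scale (adjusted p = 0.000372 and 0.000188), Ltbp4, a binder of latent TGF-beta, by 0.81 and 0.95 (adjusted p = 0.00724 and 0.00346), and Smad4 by 0.40 and 0.54 (adjusted p = 0.0110 and 0.00253). Leukocyte homing receptors had 10 of 16 tested, with 3 higher and 0 lower in wild types (median 0.58) and 4 higher and 0 lower in mutants (median 0.53). Selplg, the ligand of P-selectin, and Cd44, the hyaluronan receptor, rose in both genotypes, Selplg by 0.63 and 0.99 (adjusted p = 0.0390 and 0.00469) and Cd44 by 0.83 and 0.52 (adjusted p = 0.00342 and 0.0406). Cxcr6 rose by 1.07 in wild types (adjusted p = 0.0268), and Selp and Cxcr5 rose by 0.91 and 1.40 in mutants (adjusted p = 0.00738 and 0.0277).

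The marker lists gave the following counts of called genes with challenge, to be read against 22.5% of all probes in wild types and 30.5% in mutants. Of the 4 pan-leukocyte markers 3 rose in each genotype, with mean log2 levels of 9.63 to 9.94 in unchallenged wild types, 9.52 to 10.57 in unchallenged mutants, 10.47 to 11.11 in challenged wild types and 10.84 to 11.58 in challenged mutants. Macrophage markers had 3 of 4 higher in wild types and 2 of 4 in mutants, neutrophil markers 3 of 6 in each, and both eosinophil markers tested of 6 on the array rose in each (Epx, Siglecf and Ccr3 were detected on no array). T cell markers had 0 of 3 and 1 of 3 higher, B cell markers 0 of 4 and 3 of 4, and mast cell markers 0 of 2 and 1 of 2. The 1 NK cell marker tested of 5 on the array rose in each genotype (Ncr1, Klrb1c, Gzma and Klrk1 were detected on no array). Dendritic cell markers, which bear on Itgax and Itgae, had 0 of 4 called in wild types and 1 of 4 lower in mutants, with Flt3, Xcr1 and Clec9a detected on no array. Their median log2 differences were 0.42 and 0.51. Their mean log2 levels were 7.41 to 7.61 in unchallenged and 7.73 to 7.87 in challenged wild types. In mutants they were 7.40 to 7.91 without challenge and 7.71 to 8.05 with it. In tissue cells, fibroblast markers had 1 of 6 higher and 2 lower in each genotype, smooth muscle markers 0 of 4 called in wild types and 3 lower in mutants, and alveolar epithelium markers 1 of 6 higher and 2 lower in wild types and 3 lower in mutants. Exocrine pancreas markers had 1 of 5 higher in each genotype, squamous epithelium markers had 0 of 5 called, and the 1 thymus marker tested was not called. The part of these cell types in the integrin values was not tested.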

How the data were processed

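RNA of 15 lungs was hybridised to 1 beadchip array each, and the labels' genotype and challenge gave the groups. The deposited table holds 25697 probes and, per the file headers, their linear intensity on each array with its detection p-value. GenomeStudio 2011.1 is named, with no role, per the submitters' processing notes. The authors' series matrix holds further intensity values, 21.1% to 21.2% of them negative on each array. Normalization, centring and scale of these are not given in the sources used, so they were an alternative only.

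With neqc of limma 3.58.1 (R 4.3.3), intensities were corrected for background, taking control behaviour from the detection p-values, and quantile-normalized to a log2 scale after adding an offset of 16. Probes with a detection p under 0.05 on at least 3 arrays were tested, 14396 in all. A mean for each of 4 groups was fitted to all 15 arrays (lmFit and eBayes, 11 residual degrees of freedom), with two-sided p-values adjusted by Benjamini-Hochberg over all probes tested and a threshold of 0.05. Intervals cover 95%. The number of arrays limits the precision.

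The members, the 5 gene lists around them and the 17 marker lists were chosen with earlier results of these data known. Named from each gene list were the 4 genes with the smallest p among those called in each challenge comparison, and for each member the 3 genes of highest correlation over arrays. Where no probe is named, values are those of a gene's brightest probe. Of all probes 23978 had 1 gene symbol, 0 several and 1719 none.

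The alternatives changed the background correction (none, or an offset of 50 after normexp), the scaling (median scaling or cyclic loess), the source (series matrix values) or the filter, with none or a stricter one (detection p under 0.01 on at least 7 arrays). Others used trend and robust moderation, array weights or mean raw signal as a covariate, were fitted to the compared groups alone or with a block for replicate number, or left out each array in turn. Further fits were added after seeing the data. They left out the 4 arrays of high exocrine pancreas level, left out challenged mutants 1 and 4, or used the pancreas level as a covariate. The same model was also run on simulated data built from the means and spreads of these arrays, and no result here rests on that run.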

Additional observations from a re-analysis of the deposited data

Results flagged for a closer look

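In 33 groups of 4 arrays (11 probes in each of the groups of that size), the distance of the outermost array from its nearest neighbour was set against the range of the group, and 3 arrays stood far from the rest. Chance flags about 1 in 20 such groups. Itgb7 in challenged wild type 2 was 8.51 on the log2 scale, below the next array at 9.06. Itgae ILMN_2699898 in challenged wild type 3 was 8.57, above the next array at 8.14. Itgb1 ILMN_2789077 in challenged mutant 4, the array of lowest mean raw signal, was 4.96 and not detected, below the next array at 6.47.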

How the results depend on the processing

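The 28 single values given for the members (835 alternative values in all) kept their direction and their side of the threshold in 740. They no longer passed in 34, newly passed in 27 and turned their sign in 34, of which 1 had passed as reported (Itgb7 in mutants). For challenge in mutants, 3 integrin probes passed as reported, 9 with median scaling, 5 with cyclic loess, 0 with mean raw signal as a covariate, 6 without the arrays of high pancreas level, and 2 to 5 with each array left out in turn (5 without challenged mutant 2). For challenge in wild types, 5 passed as reported, 1 with mean raw signal as a covariate, 3 without the arrays of high pancreas level, and 3 to 6 with each array left out (3 without unchallenged wild type 2 or 3 or challenged wild type 1). Between unchallenged genotypes and for the difference between responses, 0 to 2 passed with each array left out, and the 2 came without unchallenged mutant 2. Without that array 36 and 8 of all probes passed in these comparisons, against 2 and 0 as reported. Median scaling moved the median log2 difference of all probes to -0.31 in wild types and -0.54 in mutants, and called 5158 and 7931 of all probes, against 3240 and 4392. Mean raw signal as a covariate called 964 and 190. Array weights called 5410 in wild types, and a fit to the groups compared alone called 2531 in mutants. Cyclic loess called 4479 of all probes in mutants. Without the arrays of high pancreas level 2444 of all probes passed in wild types and 5603 in mutants. With each array left out in turn, 2106 to 4362 of all probes passed in wild types and 2310 to 4632 in mutants.

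Signs turned as follows on the log2 scale. With mean raw signal as a covariate, Itgb7 was -0.24 in mutants, Itgb1 ILMN_2789077 0.66 in mutants, Itgb6 ILMN_2805372 0.21 in wild types and 0.25 in mutants, and Itgb6 ILMN_2805375 0.14 and 0.23. Median scaling gave Itgb6 ILMN_2604243 -0.070 in wild types and -0.41 in mutants. Itgb6 ILMN_2805375, near 0 as reported, was 0.00064 without background correction, 0.013 with cyclic loess and 0.0024 with array weights in wild types, and 0.0039 with cyclic loess, 0.059 with array weights and 0.18 without challenged mutants 1 and 4 in mutants. With each array left out it ranged from -0.096 to 0.11 in wild types and from -0.16 to 0.075 in mutants. The Itgax difference between responses was 0.047 without background correction, 0.024 with an offset of 50, and -0.34 to 0.16 with each array left out. Itgae ILMN_1217629 in mutants ranged from -0.58 to 0.039 with each array left out and was -0.91 with median scaling, and Itgae ILMN_2628900 in wild types was 0.078 without the arrays of high pancreas level. The causes were not tested.

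The labels give the groups the same replicate numbers. Deviations of same-numbered arrays correlated from -0.09 to 0.50, not above 0.1 in every pair, so the numbers were not taken to pair the arrays. What same-numbered arrays may share beyond this was not tested. With the replicate number as a block, 4 integrin probes passed in wild types (Itgb1 ILMN_2789077 fell short at adjusted p = 0.0511) and 3 in mutants, and Itgb6 ILMN_2805375 in mutants was 0.027. Dim probes limit the rest, since 5 of the 16 were detected on too few arrays to test.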
